A study of Mus musculus with 6 samples.

Results

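The 6 genes of the mammalian intracellular calcium release channels were examined, the ryanodine receptors Ryr1, Ryr2 and Ryr3 and the inositol trisphosphate (IP3) receptors Itpr1, Itpr2 and Itpr3. They were taken by name from 37310 genes of the GENCODE annotation of mm9 (NCBIM37). Hippocampal chromatin of mice labelled C57/BL6 (C57Bl6/J in the study's methods) and aged 6 months was sequenced after immunoprecipitation of histone H4 acetylated at lysine 5 (H4K5ac-ChIP), after mock immunoprecipitation with IgG (IgG-IP) and without immunoprecipitation (input). A set of 3 libraries came from mice given foot shocks in a context in 2 sessions of contextual fear conditioning (FC), and the other from controls (CON) that met the same context without shock, and the study took tissue 1 h after a memory test on day 3. The tissue holds neurons and glia together, all animals were of the same strain, and by the study's methods control mice were handled alike apart from the shock. The study describes 3 hippocampal samples per group, and 1 library per group and antibody was analysed here.

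With single libraries the spread between animals is unknown, so no test between conditions was possible. Each value below has a 95% interval that covers counting error only, from the Poisson distribution for a density and from the exact conditional distribution for a ratio of reads. The libraries held between 14549689 and 45673239 aligned reads, with the fewest in the IgG-IP libraries. Read density is given as RPKM, the count of reads in an interval scaled by its length and by the library's total of aligned reads. In chromatin of a whole tissue, fewer cells that carry a mark and less of the mark per cell cannot be told apart.

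Both families form very large tetrameric channels in the membrane of the endoplasmic or sarcoplasmic reticulum. IP3 receptors open when phospholipase C produces IP3 and cytosolic calcium is also present, and ryanodine receptors open mainly on calcium itself or, in skeletal muscle, through contact with a voltage sensor of the plasma membrane. In neurons, calcium released by both families adds to calcium that enters through surface channels and takes part in synaptic plasticity. Acetylation of lysine 5 of histone H4 is a mark found largely on active chromatin.

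The genes differ widely in size and base composition. Ryr3 (ENSMUSG00000057378.7, chr2:112471512-113057253, minus strand), the gene of a ryanodine receptor found in brain, spans 586 kb with 41.1% GC. Ryr2 (ENSMUSG00000021313.8, chr13:11645370-12199212, minus strand), the gene of the cardiac and main brain ryanodine receptor, spans 554 kb with 41.8% GC. Ryr1 (ENSMUSG00000030592.9, chr7:29788359-29910170, minus strand), the gene of the skeletal muscle channel, spans 122 kb with 50.7% GC. Among the IP3 receptors, Itpr1 (ENSMUSG00000030102.7, chr6:108163112-108501103, plus strand), the main neuronal form, spans 338 kb with 44.3% GC. Itpr2 (ENSMUSG00000030287.8, chr6:146056821-146450745, minus strand), the form prominent in glia and heart, spans 394 kb with 44.8% GC. Itpr3 (ENSMUSG00000042644.8, chr17:27194249-27259168, plus strand), the form known from epithelia and taste cells, spans 64.9 kb with 54.8% GC. Exons take between 3.02% of Ryr3 and 13.8% of Itpr3. Some intervals are shared with other annotated genes, Ryr3 with Aven and Gm17411, Ryr1 with Gm16799 and Mir1963, Itpr2 with Gm17706 and Gm15720, and Itpr3 with 1700062I23Rik, and reads there were counted for both.

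Sequences are shown for windows picked by the scan described below, since whole gene bodies are too long to print. All were read from the NCBIM37 genome and run for 300 bases from 5′ to 3′, with CG dinucleotides in capitals. The first is the summit of the single region called higher in FC than in CON, in an intron of Ryr3 (chr2:112856551-112856850, plus strand of the assembly, opposite to the gene). The next come from the scan of H4K5ac-ChIP against IgG-IP. They are the windows with the largest mean fold over its expected count in Itpr1 (chr6:108407701-108408000, plus strand) and Itpr2 (chr6:146106151-146106450, plus strand, opposite to the gene).
Ryr3 window: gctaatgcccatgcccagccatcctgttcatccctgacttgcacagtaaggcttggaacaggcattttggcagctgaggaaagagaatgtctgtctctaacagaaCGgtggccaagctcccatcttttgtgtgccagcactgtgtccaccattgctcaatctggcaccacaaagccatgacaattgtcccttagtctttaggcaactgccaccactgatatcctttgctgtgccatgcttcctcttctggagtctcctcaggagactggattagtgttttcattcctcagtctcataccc
Itpr1 window: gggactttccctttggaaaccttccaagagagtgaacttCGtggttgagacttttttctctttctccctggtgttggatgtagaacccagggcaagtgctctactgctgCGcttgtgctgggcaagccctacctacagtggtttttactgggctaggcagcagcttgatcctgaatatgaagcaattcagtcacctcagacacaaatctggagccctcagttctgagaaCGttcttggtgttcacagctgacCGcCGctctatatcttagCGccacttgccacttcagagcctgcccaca
Itpr2 window: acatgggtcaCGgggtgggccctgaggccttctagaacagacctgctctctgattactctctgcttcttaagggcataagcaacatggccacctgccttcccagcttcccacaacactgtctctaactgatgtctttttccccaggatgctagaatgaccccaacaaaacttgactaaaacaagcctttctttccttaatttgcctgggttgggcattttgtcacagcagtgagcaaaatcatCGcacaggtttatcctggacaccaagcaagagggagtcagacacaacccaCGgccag

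The windows held 1, 6 and 3 CG dinucleotides, at a GC content of 50%, 51% and 50%. Promoter sequence, from 250 bases before the first TSS to 50 bases after it, is shown in the sense of the gene for Itpr1 (chr6:108162862-108163161, plus strand), the only member whose promoter passed the fold over IgG-IP given below, and for Ryr2 (chr13:12199163-12199462, minus strand), whose promoter was lowest in the CON H4K5ac-ChIP library.
Itpr1 promoter: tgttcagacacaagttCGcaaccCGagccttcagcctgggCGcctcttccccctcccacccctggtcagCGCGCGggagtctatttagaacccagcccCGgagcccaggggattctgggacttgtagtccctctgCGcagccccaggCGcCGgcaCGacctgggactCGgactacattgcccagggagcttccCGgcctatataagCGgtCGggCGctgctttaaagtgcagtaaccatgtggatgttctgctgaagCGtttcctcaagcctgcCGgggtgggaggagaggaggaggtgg
Ryr2 promoter: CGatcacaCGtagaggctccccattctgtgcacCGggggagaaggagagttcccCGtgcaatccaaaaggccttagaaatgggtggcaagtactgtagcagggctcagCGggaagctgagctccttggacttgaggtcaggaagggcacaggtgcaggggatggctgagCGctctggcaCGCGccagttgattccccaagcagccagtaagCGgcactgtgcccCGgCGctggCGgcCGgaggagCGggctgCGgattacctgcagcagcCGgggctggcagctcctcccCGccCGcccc

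In windows of this length the promoters held 9 CG dinucleotides in Ryr1, 18 in Ryr2, 26 in Ryr3, 18 in Itpr1, 26 in Itpr2 and 30 in Itpr3, and the median of 22375 protein-coding promoters was 11. Ryr1 was thus the only member below the median. Letters were searched on both strands, and TGACG also counts inside TGACGTCA. The cAMP response element TGACGTCA was in 0 of the 6 promoters and in 2.32% of all, and its core TGACG was in 0 of the 6 and in 23.3% of all. The GC box GGGCGG was in every member but Itpr1 and in 43.4% of all promoters, and the E-box CANNTG was in every member but Ryr1 and in 69.6% of all. A match of letters is a description and does not show that a factor binds.

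Itpr1 carried the most H4K5ac of the 6 genes in both groups, Itpr2 followed, and the ryanodine receptors and Itpr3 lay close to one another at a lower level. The order Itpr1 then Itpr2 was found in FC and in CON, while the order of the other 4 genes was not the same in both. Across Itpr1, gene body density was 0.962 RPKM in FC and 0.949 RPKM in CON H4K5ac-ChIP. The same gene had 0.403 and 0.421 RPKM in IgG-IP and 0.570 and 0.479 RPKM in input. Both H4K5ac-ChIP libraries were thus above all 4 control libraries at this gene. Itpr2 had 0.731 and 0.693 RPKM in H4K5ac-ChIP of FC and CON, 0.370 and 0.382 RPKM in IgG-IP, and 0.587 and 0.472 RPKM in input. Itpr2 therefore also lay above every control library, by a smaller margin over FC input.

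The third IP3 receptor gene was different. Itpr3 had 0.541 RPKM in FC and 0.487 RPKM in CON H4K5ac-ChIP, with 0.308 and 0.324 RPKM in IgG-IP. Its input values were 0.655 RPKM in FC and 0.359 RPKM in CON, so that FC input exceeded FC H4K5ac-ChIP. Of the ryanodine receptors, Ryr1 had 0.531 and 0.460 RPKM in H4K5ac-ChIP of FC and CON, 0.339 and 0.361 RPKM in IgG-IP, and 0.623 and 0.412 RPKM in input. FC input again exceeded FC H4K5ac-ChIP. Ryr2 had 0.529 and 0.573 RPKM in H4K5ac-ChIP, 0.454 and 0.457 RPKM in IgG-IP and 0.466 and 0.445 RPKM in input, and was the only member that was lower in FC than in CON. Ryr3 had 0.504 and 0.487 RPKM in H4K5ac-ChIP, 0.380 and 0.392 RPKM in IgG-IP, and 0.402 and 0.424 RPKM in input.

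**Figure D1:**
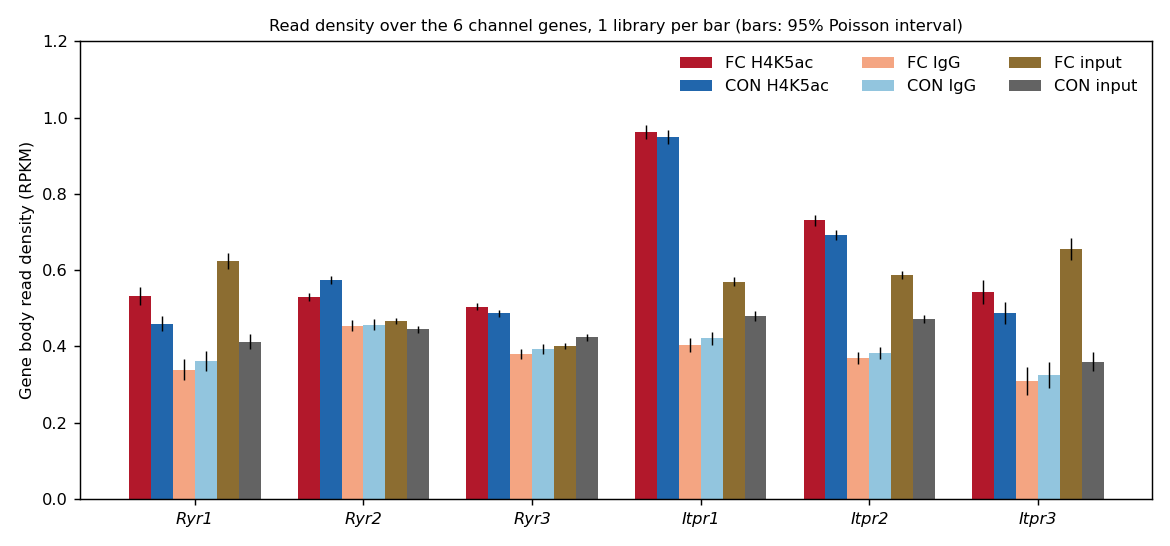
Gene body read density in RPKM (vertical axis, from 0) for the 6 genes in each of the 6 libraries; a bar is 1 library and its line the 95% Poisson interval. The pair of H4K5ac-ChIP bars stands highest at Itpr1 (0.962 and 0.949) and next at Itpr2 (0.731 and 0.693), and FC input is the tallest bar at Ryr1 and Itpr3.

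Neighbours in this order could not always be separated by counting error. In FC H4K5ac-ChIP the log2 ratio was 0.40 (0.36 to 0.44) between Itpr1 and Itpr2 and 0.43 (0.34 to 0.52) between Itpr2 and Itpr3. The next steps were smaller, 0.03 (-0.08 to 0.13) between Itpr3 and Ryr1 and 0.01 (-0.06 to 0.08) between Ryr1 and Ryr2, and these neighbours did not differ beyond their intervals. In CON the ratio was 0.45 (0.42 to 0.49) between Itpr1 and Itpr2 and 0.27 (0.23 to 0.31) between Itpr2 and Ryr2, and Itpr3 and Ryr3 did not differ beyond the interval of 0.00 (-0.09 to 0.09). In IgG-IP, where Ryr2 was highest in both groups, the members ran from 0.308 to 0.454 RPKM in FC and from 0.324 to 0.457 RPKM in CON.

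The next comparison asked how much of the density at each gene exceeded the control libraries. All 6 genes had more H4K5ac-ChIP than IgG-IP in both groups, most at Itpr1 and least at Ryr2 in FC and at Ryr3 in CON. For Itpr1 the log2 ratio to IgG-IP in FC was 1.25 (1.18 to 1.32), that in CON 1.17 (1.11 to 1.24), which put the gene at percentiles 78.8 and 83.6 of the genes tested. For Itpr2 it was 0.98 (0.91 to 1.05) and 0.86 (0.79 to 0.92), at percentiles 64.9 and 65.7. Itpr3 had 0.81 (0.63 to 1.00) in FC and 0.59 (0.41 to 0.77) in CON. Only in FC did its whole interval lie above the 1.5-fold line, and its CON ratio was 1.504.

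The ryanodine receptors lay below the median of genes tested, which was 0.73 in FC and 0.64 in CON. Ryr1 had a log2 ratio to IgG-IP of 0.65 (0.52 to 0.78) in FC and 0.35 (0.23 to 0.47) in CON, Ryr2 0.22 (0.17 to 0.28) and 0.33 (0.28 to 0.38), and Ryr3 0.41 (0.35 to 0.47) and 0.31 (0.26 to 0.37). A ratio of at least 1.5 in both groups was met by 3 of the 6 members, Itpr1, Itpr2 and Itpr3. Over all genes with at least 100 reads in the libraries compared it was met by 49.5%, so the members' share was that of the background.

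Against input the picture was narrower. Itpr1 had a log2 ratio of 0.76 (0.71 to 0.80) in FC and one of 0.99 (0.94 to 1.03) in CON, and that of Itpr2 0.32 (0.28 to 0.36) and 0.55 (0.51 to 0.60). Ryr1 was at -0.23 (-0.31 to -0.15) in FC and 0.16 (0.06 to 0.25) in CON, and Itpr3 at -0.27 (-0.38 to -0.17) and 0.44 (0.31 to 0.57), so both changed sign between groups. Ryr2 and Ryr3 stayed above input, at 0.18 and 0.33 in FC and 0.37 and 0.20 in CON. A ratio of at least 1.5 over input in both groups was met by 1 member, Itpr1, and by 20.4% of the genes tested.

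The FC input library moved with these values. Its density over that of CON input had a log2 ratio of 0.60 (0.51 to 0.68) at Ryr1 and 0.87 (0.75 to 0.99) at Itpr3, the members with the highest GC content, against -0.08 (-0.12 to -0.04) at Ryr3 and 0.07 (0.03 to 0.11) at Ryr2, which have the lowest. The median over genes was 0.31. IgG-IP differed little between groups, with log2 ratios from -0.09 to -0.01 whose intervals all included 0. The part of GC content in the input ratios was not tested.

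**Figure D2:**
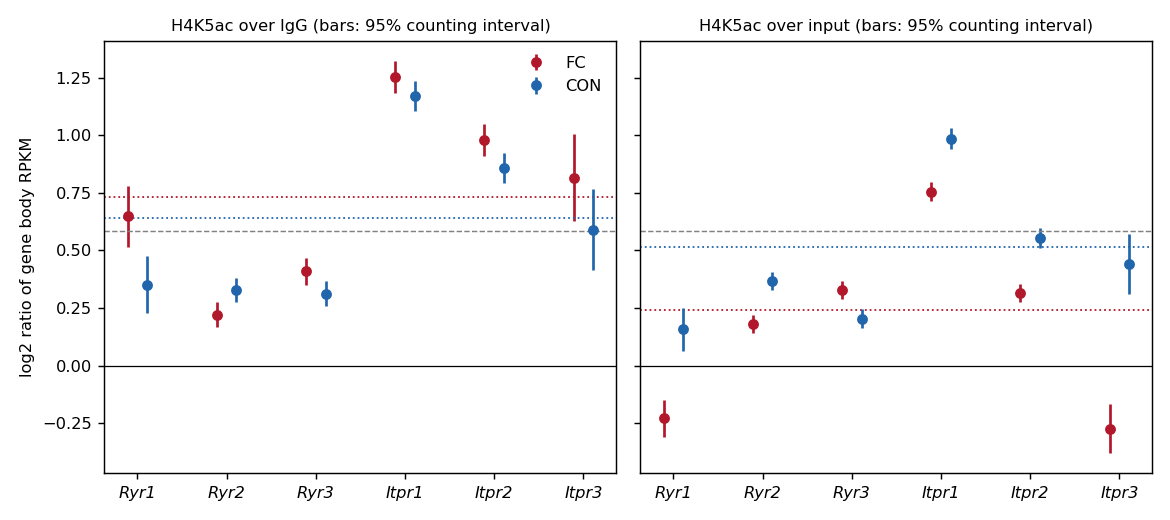
log2 ratio of gene body RPKM of H4K5ac-ChIP over IgG-IP (left) and over input (right) for the 6 genes in FC (red) and CON (blue); lines are 95% counting intervals, dotted lines the medians of the genes tested and the dashed line a ratio of 1.5. Itpr1 is the only gene above the dashed line in both panels and groups, and Ryr1 and Itpr3 fall below 0 over FC input.

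To ask whether fear conditioning went with a change in H4K5ac at these genes, the H4K5ac-ChIP libraries of FC and CON were compared directly. None of the 6 gene bodies differed by as much as 1.2-fold. The largest log2 ratio of FC over CON was 0.21 (0.12 to 0.30) at Ryr1, followed by 0.15 (0.03 to 0.27) at Itpr3. Itpr2 had 0.08 (0.04 to 0.12), Ryr3 0.05 (0.01 to 0.09) and Itpr1 0.02 (-0.02 to 0.06). Ryr2 was the member with a negative value, -0.12 (-0.16 to -0.08). Apart from Itpr1 the intervals excluded 0, but they hold counting error alone, and the spread between mice could be wider. Past 1.2-fold, 0 of 6 members were higher and 0 lower in FC, while 11.8% of all genes tested were higher and 4.69% lower.

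The ratio between these libraries rose with GC content over the whole annotation. Genes near 37% GC had a median log2 ratio of -0.14 (363 genes) and genes near 58% one of 0.24 (116 genes). Less the median of genes of like GC content, Ryr1 was at 0.09, Ryr3 at 0.10, Itpr2 at 0.05, Itpr1 at -0.00, Itpr3 at -0.02 and Ryr2 at -0.09. Ryr1 thus moved from 0.21 to 0.09, Itpr3 and Itpr1 turned just below 0, and Ryr2 remained the lowest. Less the ratio of the input libraries instead, only Ryr3 was above 0, at 0.13, and Itpr3 reached -0.72, Ryr1 -0.39, Itpr2 -0.24, Itpr1 -0.23 and Ryr2 -0.18. The sign of the group difference at Ryr1, Itpr1, Itpr2 and Itpr3 therefore depended on which library served as the reference.

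**Figure D3:**
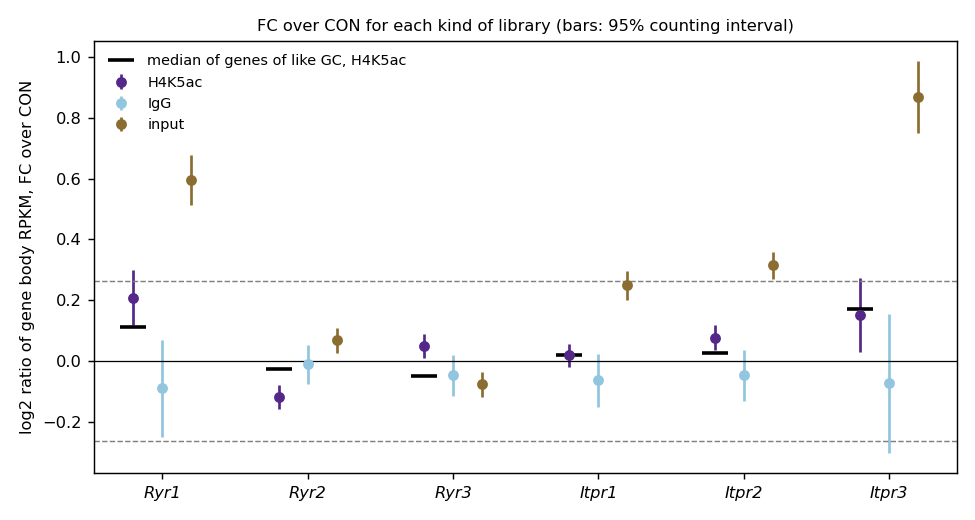
log2 ratio of gene body RPKM of FC over CON for H4K5ac-ChIP, IgG-IP and input at the 6 genes; lines are 95% counting intervals, black dashes the median H4K5ac-ChIP ratio of genes of like GC content and dashed lines a ratio of 1.2 in either direction. H4K5ac-ChIP stays inside the dashed lines at all 6 genes, while the input points leave them at Ryr1, Itpr2 and Itpr3.

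The 5 kb upstream of the first TSS was counted next. Every member had over 50 H4K5ac-ChIP reads there in both groups, from 60 at Ryr2 in CON to 145 at Itpr1 in CON, which was true of 63.6% of all genes. Itpr1 stood out by level, with 0.759 RPKM in FC and 0.806 RPKM in CON against 0.481 and 0.424 RPKM in IgG-IP. The log2 ratio to IgG-IP at the Itpr1 promoter was 0.66 (0.10 to 1.25) in FC, and a value of 0.93 (0.38 to 1.502) was found in CON. It was the 1 member with at least 1.5 times IgG-IP in both groups, a level passed by 36.5% of promoters tested.

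At 4 of the other promoters the interval of H4K5ac-ChIP over IgG-IP included 0 in both groups. Itpr2 had ratios of -0.00 and -0.01 and Itpr3 of 0.23 and -0.05. Ryr1 had 0.43 (-0.26 to 1.16) in FC and 0.22 (-0.37 to 0.85) in CON, and Ryr3 -0.00 and 0.11. The Ryr2 promoter had 73 reads or 0.462 RPKM in FC and 60 reads or 0.334 RPKM in CON. In CON this was below IgG-IP, at 0.509 RPKM, with a log2 ratio of -0.61 (-1.20 to -0.01). With 24 to 43 IgG-IP reads per promoter, ratios of this size are poorly resolved.

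Within 2 kb either side of the first TSS the picture changed for Itpr2. Its H4K5ac-ChIP density was 1.005 RPKM in FC and 0.779 RPKM in CON, with IgG-IP at 0.464 and 0.440 RPKM, and the log2 ratios were 1.11 (0.51 to 1.77) and 0.82 (0.22 to 1.47). Of the 127 FC and 112 CON reads in this interval, 46 and 51 lay in the 2 kb before the TSS. In the bin from 1 to 2 kb past the Itpr2 TSS there were 59 FC and 34 CON H4K5ac-ChIP reads, 8 and 11 IgG-IP reads and 34 and 28 input reads, and the FC density was the highest of any member within 5 kb of a first TSS. The CON library had 33 reads from 2 to 1 kb before the same TSS. At Itpr1 the density from 2 to 1 kb before the TSS was 1.27 RPKM in FC and 1.14 RPKM in CON, and the first kilobase of the gene was lower, 0.506 RPKM in FC and 0.501 RPKM in CON. Ryr3 had 0.672 RPKM in FC and 0.459 RPKM in CON around its TSS. Its log2 ratios to IgG-IP were 0.71 (0.04 to 1.42) and 0.01 (-0.63 to 0.69), intervals that overlap. At Ryr3 alone among the members, the interval of FC over CON H4K5ac-ChIP around the first TSS excluded 0. The log2 ratio was 0.55 (0.07 to 1.04), from 85 and 66 reads, at percentile 91.7 of the genes tested. FC over CON input around this TSS was 0.35 (-0.11 to 0.81). Input there was 0.591 RPKM in FC and 0.465 RPKM in CON, and the ratios to input, 0.19 (-0.24 to 0.61) and -0.02 (-0.53 to 0.50), both had intervals that included 0.

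**Figure D4:**
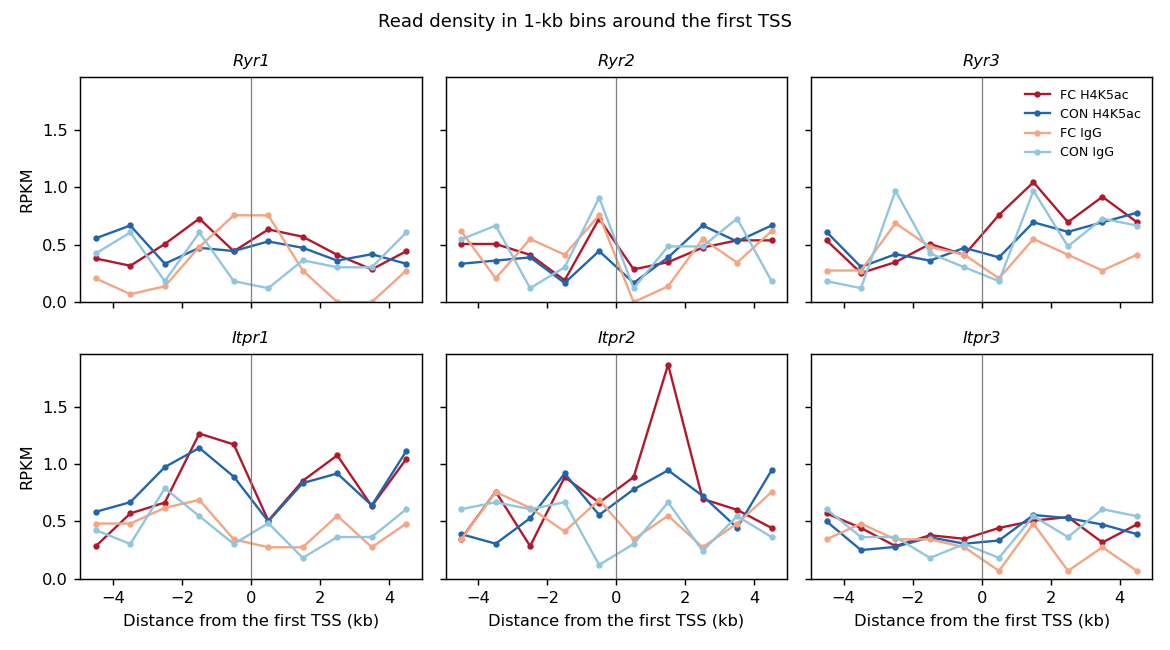
Read density in RPKM in bins of 1 kb from 5 kb before to 5 kb after the first TSS (vertical line) of the 6 genes; lines join the bins of 1 library. FC H4K5ac-ChIP reaches 1.87 RPKM at Itpr2 between 1 and 2 kb past the TSS, and the highest H4K5ac-ChIP bin of a ryanodine receptor gene is 1.04 RPKM, in FC at Ryr3.

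Alternative start sites were also looked at, since Itpr1 has 3 annotated TSSs more than 1 kb apart, and Itpr2 and Ryr3 have 5 each. At Itpr1 the sites 39.8 and 280 kb into the gene had 1.12 and 1.15 RPKM in FC and 1.15 and 1.24 RPKM in CON, above the 0.933 and 0.813 RPKM at the first. At Ryr3 the site 187 kb into the gene, start of a single coding transcript, had 0.720 RPKM in FC and 0.514 RPKM in CON H4K5ac-ChIP, and 0.361 and 0.620 RPKM in input. The Ryr3 site 577 kb into the gene was higher, at 0.918 and 0.799 RPKM. The sites at 309 and 564 kb had 0.514 and 0.649 RPKM in FC and 0.633 and 0.765 RPKM in CON. FC input was 0.739 RPKM at 577 kb, 0.476 RPKM at 309 kb and 0.668 RPKM at 564 kb. CON input was 0.521, 0.528 and 0.563 RPKM at the same sites. At 564 kb FC input was thus above FC H4K5ac-ChIP. At Itpr2 the sites between 105 and 305 kb into the gene had no more than 0.657 RPKM, and the site at 355 kb had 0.775 RPKM in FC and 0.834 RPKM in CON, the latter above the 0.779 RPKM of the first site in CON. At Itpr1 the H4K5ac-ChIP density of the internal sites exceeded that of the first by more than the counting intervals in CON, and the intervals overlapped in FC. Input was also higher at these sites, 0.679 and 0.733 RPKM in FC against 0.487 RPKM at the first. In CON it was 0.563 and 0.507 RPKM against 0.359 RPKM. IgG-IP was 0.258 and 0.481 RPKM against 0.395 RPKM in FC, and 0.364 and 0.606 RPKM against 0.364 RPKM in CON. Of the controls, input was thus higher at both internal sites, and IgG-IP only at the site 280 kb into the gene. At the site 39.8 kb into the gene H4K5ac-ChIP was higher than at the first, and IgG-IP was not. The part of the controls in the higher density inside Itpr1 was not tested.

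The shape of H4K5ac-ChIP density along the gene body differed between genes. From first to last part it was alike in both groups except at Ryr2, described below. Split into 10 equal parts, Itpr1 ranged from 0.711 to 1.19 RPKM in FC and from 0.725 to 1.13 RPKM in CON. Its second part, lowest in FC H4K5ac-ChIP, was also lowest in the controls. IgG-IP there was 0.283 RPKM in FC and 0.310 RPKM in CON, and input 0.442 and 0.400 RPKM. Itpr2 was low over most of its length and rose toward its 3′ end, from 0.623 RPKM in the first part to 1.13 RPKM in the last in FC and from 0.613 to 1.04 RPKM in CON. The log2 ratio of first over last part was -0.85 (-0.98 to -0.73) in FC and reached -0.77 (-0.89 to -0.65) in CON. It was 0.40 (0.13 to 0.67) and -0.02 (-0.27 to 0.24) in IgG-IP, so the rise was not seen in the mock libraries. Relative to input, the last part of Itpr2 was 0.97 (0.85 to 1.08) higher in FC and 1.05 (0.92 to 1.18) higher in CON on the log2 scale.

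Ryr2 ran the other way. Its density went from 0.651 RPKM in the first part to 0.431 RPKM in the last in FC and from 0.632 to 0.536 RPKM in CON. The log2 ratio of first over last part was 0.59 (0.46 to 0.73) and 0.24 (0.12 to 0.36). From first to last part, FC input had 0.38 (0.27 to 0.49) and CON input 0.06 (-0.07 to 0.20), so a gradient was also present in FC input. IgG-IP went the opposite way in FC, at -0.23 (-0.44 to -0.03), and had -0.01 (-0.21 to 0.20) in CON. Below the 3′ end of Ryr2 the next 50 kb, free of annotated genes, had only 0.254 RPKM in FC and 0.283 RPKM in CON H4K5ac-ChIP, under the 0.443 and 0.389 RPKM of IgG-IP. Upstream of Ryr2 the 50 kb free of genes had 0.415 RPKM in FC and 0.563 RPKM in CON H4K5ac-ChIP. IgG-IP there was 0.419 and 0.494 RPKM and input 0.491 and 0.442 RPKM, so only CON H4K5ac-ChIP stood above its controls.

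In Ryr3 the last of the 10 parts was highest, at 0.677 RPKM in FC and 0.630 RPKM in CON, and this part overlaps Aven. In FC the last part of Ryr3 was also the highest in input, 0.527 RPKM, and in IgG-IP, 0.451 RPKM, while CON had 0.463 and 0.410 RPKM there. Itpr3 was likewise highest in its last part, 0.897 RPKM in FC and 0.801 RPKM in CON against 0.424 and 0.433 RPKM in the first. IgG-IP in that part was 0.498 RPKM in FC, its highest of the 10, and 0.299 RPKM in CON, and input was 0.661 and 0.373 RPKM. The gene-free sequence downstream of Itpr3 was as high, 0.978 and 0.792 RPKM, and the neighbour 2900010M23Rik lies just past its end. Input in that sequence was 0.644 RPKM in FC and 0.420 RPKM in CON. Downstream of Ryr1, next to Map4k1, the density was 0.859 RPKM in FC and 0.752 RPKM in CON. This was above the 0.531 and 0.460 RPKM of the gene itself, and input downstream was 0.590 and 0.422 RPKM. Reads at the 3′ ends of Ryr1, Ryr3 and Itpr3 may belong to a neighbour as well as to the channel gene, and these cannot be told apart.

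Exons had a higher H4K5ac-ChIP density than introns in some members. For FC H4K5ac-ChIP the log2 ratio of exon over intron density was 0.43 (0.28 to 0.58) in Ryr3, 0.34 (0.19 to 0.48) in Itpr2 and 0.26 (0.11 to 0.41) in Ryr2, and in Ryr1, Itpr1 and Itpr3 the interval included 0. FC input had a larger exon excess in Ryr3, 0.90 (0.78 to 1.02), and in Ryr2, 0.54 (0.41 to 0.66). In CON H4K5ac-ChIP the ratio was 0.36 (0.21 to 0.51) in Ryr3 and 0.16 (0.00 to 0.30) in Itpr2, and the intervals of the other 4 genes included 0. In no member did the exon ratio of H4K5ac-ChIP exceed that of input beyond the intervals in both groups.

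In windows of 10 kb the FC and CON H4K5ac-ChIP libraries followed each other closely within every member. Pearson's r was 0.93 over 33 windows of Itpr1, 0.95 over 39 of Itpr2, 0.86 over 55 of Ryr2, 0.88 over 58 of Ryr3, 0.92 over 12 of Ryr1 and 0.90 over 6 of Itpr3. Between H4K5ac-ChIP and IgG-IP of FC it was 0.50 in Itpr1, 0.05 in Itpr2, 0.24 in Ryr2, 0.65 in Ryr3, -0.42 in Ryr1 and 0.24 in Itpr3. With input of the same group, Ryr3 had 0.79 in FC and 0.78 in CON, Itpr1 0.65 and 0.59, Ryr2 0.57 and 0.41, and Itpr2 0.27 and 0.24. Itpr3 had 0.39 and 0.73 and Ryr1 -0.0026 and 0.027. Windows of a gene share its sequence and mappability and are not independent, and these values are descriptions. The window from 50 to 60 kb in Itpr1 was an example, with 0.184 and 0.222 RPKM in H4K5ac-ChIP and 0.0893 and 0.0606 RPKM in IgG-IP of FC and CON. Low values there appeared in all 6 libraries, with input at 0.140 and 0.147 RPKM. The highest window of any member began 90 kb into Itpr1 and had 1.56 RPKM in FC and 1.51 RPKM in CON.

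**Figure D5:**
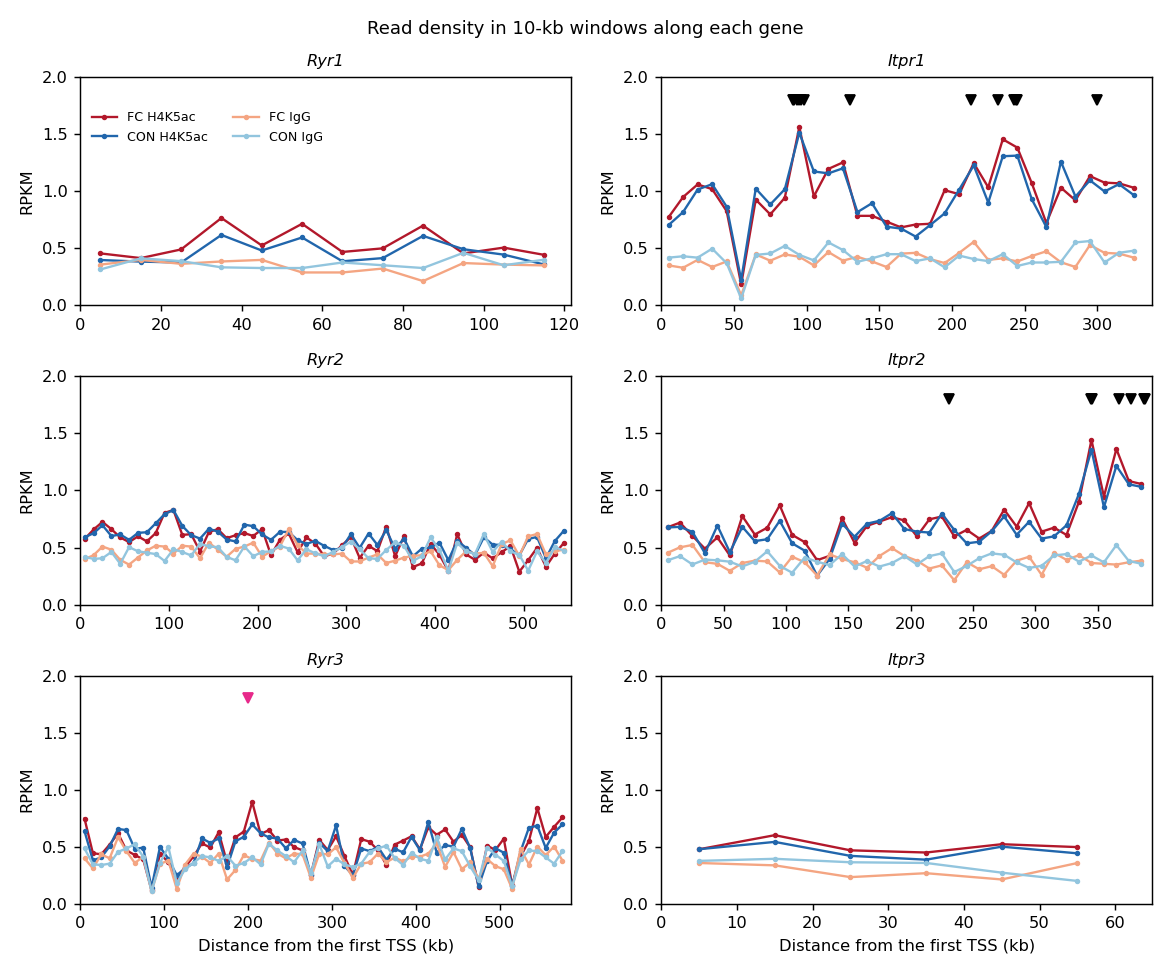
Read density in RPKM in windows of 10 kb against distance from the first TSS of each gene, for H4K5ac-ChIP and IgG-IP of FC and CON. Black triangles mark the 20 regions called higher in H4K5ac-ChIP than in IgG-IP in both groups, 13 in Itpr1 and 7 in Itpr2 with 6 of these near its 3′ end, and the pink triangle marks the region of Ryr3 called higher in FC than in CON.

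A scan in windows of 300 bp, after the peak-calling settings of the study, located the mark more finely. It called a region where reads of one library exceeded an expected count with a Poisson p below 1e-05, which compares those libraries and not the conditions. The expected count was the largest of the genome rate and the local rates of the other library. Regions higher in H4K5ac-ChIP than in IgG-IP in both groups were present in 2 of the 6 members, Itpr1 with 13 and Itpr2 with 7, and in 14.7% of all genes. Long genes hold more windows, so the number per megabase is also given. It was 37.9 in Itpr1 and 17.5 in Itpr2, and 10.1 over all genes, beside 9.58 over the 6 members together. Ryr1, Ryr2, Ryr3 and Itpr3 had 0 such regions, although, with the groups taken separately, Ryr2 had 4 in CON and 1 in FC, Ryr3 had 1 in FC and Itpr3 had 1 in CON. Taken separately, regions per megabase over the 6 members came to 27.3 in FC and 35.0 in CON, beside 26.9 and 32.1 over all genes. Against input in both groups the scan called 10 regions in Itpr1, 5 in Itpr2 and 0 in the other members. That was 7.18 per megabase over the 6 members, beside 6.99 over all genes.

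All 20 regions lay in introns and none within 5 kb of the first TSS. Exons take only 3.09% of Itpr1 and 3.43% of Itpr2, so most regions placed anywhere in these genes would lie in introns. The 5 kb around the first TSS is likewise a small part of genes of 338 and 394 kb. In Itpr1 they were spread from 90.6 to 299.5 kb past the TSS, with 6 of 13 in intron 4, from 90.6 to 98.3 kb, and 4 in intron 44. In Itpr2 they ran from 230 to 388 kb, with 6 of 7 from 344 kb on, in introns 52, 53 and 54. The largest mean fold over the expected count was 5.75, in intron 52 of Itpr2, the region chr6:146105951-146106750 whose summit sequence is printed above. Its summit had 33 FC and 25 CON H4K5ac-ChIP reads, 2 and 2 IgG-IP reads and 17 and 8 input reads. The expected count there was 4.34 reads in FC and 5.11 in CON, at the depth of the H4K5ac-ChIP library, so the fold is not a ratio to IgG-IP reads.

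The 4 regions that followed by fold were all in Itpr1. The first, chr6:108407601-108408050 in intron 44, had a mean fold of 5.54, and its printed window had 33 and 30 H4K5ac-ChIP reads, 0 and 1 IgG-IP reads and 17 and 5 input reads in FC and CON. Next came chr6:108253351-108254050 in intron 4 with a mean fold of 5.29 and chr6:108406651-108407350 in intron 44 with 5.28. The last of these was chr6:108405601-108406150 in intron 44, with 5.20. These 3 regions of intron 44 had their summits between 243 and 245 kb past the TSS. At these summits input reads ran from 5 to 17, fewer than the H4K5ac-ChIP reads. The windows were picked for their H4K5ac-ChIP reads over the expected count, a choice that raises such a difference. The counts are also not set to library depth.

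Between groups, 1 region in 6 members was called higher in FC than in CON, in Ryr3, and 0 regions were called higher in CON. Over all genes, 2.33% had a region higher in FC and 1.61% a region higher in CON. Per megabase, regions higher in FC came to 0.479 over the 6 members and to 0.673 over all genes, so the members were not above the background. The region of Ryr3 spans chr2:112856451-112856950 in intron 2 201 kb past the first TSS. The scan, which counts 1 read per position and strand and shifts reads toward the fragment centre, found 23 reads where 5.10 were expected, a fold of 4.51. Counted without a shift, the window printed above had 33 FC and 9 CON H4K5ac-ChIP reads, or 3.48 and 0.834 RPKM, and 0 and 3 IgG-IP reads.

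Input moved in the same direction in this window. It held 19 FC and 2 CON input reads, or 1.39 and 0.188 RPKM. The log2 ratio of FC over CON was 2.06 (0.97 to 3.31) for H4K5ac-ChIP and 2.88 (0.83 to 6.03) for input, intervals that overlap widely. With 1 read per position and strand the ratios were 1.76 (0.55 to 3.13) and 2.54 (0.43 to 5.71). Within FC, H4K5ac-ChIP stood above input by 1.33 (0.47 to 2.22) on the log2 scale, and within CON, with 9 against 2 reads, by 2.15 (-0.12 to 5.40). The window was picked for its excess of FC over CON H4K5ac-ChIP reads. That choice raises the ratios with FC H4K5ac-ChIP on top, and their intervals do not allow for it. The part of the input in the H4K5ac difference at this site was not tested. The 10 kb around it, from 200 kb into Ryr3, had 0.892 RPKM in FC and 0.695 RPKM in CON H4K5ac-ChIP.

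For each member the protein-coding genes with the most alike gene body densities over the 6 libraries were found among 9712 genes of at least 20 kb, by Euclidean distance of log2 RPKM. They were Lrrc8c (0.07) and Irf2 (0.07) for Itpr1, Rprd1b (0.08) and Kcnh1 (0.08) for Itpr2, and Sh2b2 (0.16) and Lrrc50 (0.16) for Itpr3. For the ryanodine receptors they were Bcas1 (0.08) and Grip2 (0.12) for Ryr1, Wdr35 (0.09) and 2610528E23Rik (0.10) for Ryr2, and Ganc (0.10) and Pid1 (0.11) for Ryr3. Among the members themselves the closest pair was Ryr1 and Itpr3 at 0.30, which are the smallest and most GC-rich genes, followed by Ryr2 and Ryr3 at 0.46. The farthest pair was Itpr1 and Itpr3 at 1.43. The closest pair thus crossed the families.

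The channels work with pumps, entry channels, IP3 enzymes and partner proteins, and 53 such genes were counted as a list. Of these, 37 had gene body H4K5ac-ChIP at least 1.5 times IgG-IP in both groups (49.5% over all genes tested), with a median log2 ratio of 0.88 in FC and 0.80 in CON, beside 0.73 and 0.64 for all genes tested. Past 1.2-fold between groups, 1 of the 53 genes was higher and 0 lower in FC, beside 11.8% and 4.69% of all genes tested. The median of FC over CON was 0.04 in the list and 0.04 over all genes.

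By role, all 5 genes of store-operated entry, all 4 of IP3 removal and all 7 of calcium extrusion at the plasma membrane passed the fold over IgG-IP. So did 7 of 10 phospholipase C genes that produce IP3, 8 of 13 genes of channel partners, 5 of 11 of luminal and junctional proteins, and 1 of 3 ER calcium pump genes. That pump was Atp2a2. By the mean of both groups the highest ratios were at Casq1, which encodes the calcium-binding calsequestrin of skeletal muscle, with 2.11 in FC and 1.82 in CON. Plcg1, the gene of phospholipase C gamma, had 1.87 and 1.70, and Orai3, a store-operated channel gene, had 1.81 and 1.56. Calr, the gene of the luminal calcium-binding protein calreticulin, had 2.16 (1.33 to 3.11) in FC and 0.76 (0.22 to 1.33) in CON. Its IgG-IP was 0.176 RPKM in FC and 0.429 RPKM in CON. H4K5ac-ChIP at Calr was 0.784 and 0.727 RPKM, a log2 ratio of FC over CON of 0.11 (-0.25 to 0.47).

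The lowest were at genes of muscle junctions and of a phospholipase. Trdn, which encodes triadin, a partner of ryanodine receptors in muscle, had -1.37 in FC and -1.18 in CON. Plce1, the gene of phospholipase C epsilon, had -0.25 and -0.28, and Jph2, the cardiac junctophilin gene, had -0.20 and -0.26. Calm3, 1 of 3 genes for calmodulin, which binds both channel families, was the gene past 1.2-fold between groups, with a log2 ratio of FC over CON of 0.51 (0.25 to 0.76), or 0.29 less the median of genes of like GC content. Its input was 0.614 RPKM in FC and 0.326 RPKM in CON, and over input its H4K5ac-ChIP was lower in FC, at 0.75, than in CON, at 1.16, on the log2 scale. Regions called higher in FC were in 5 genes of the list, Orai1, Orai3, Itpkc, Calr and Slc8a1 (2.33% over all genes). Regions higher in CON were in Itpkc and Erp44 (1.61% over all genes). Gene length was not allowed for in these shares, and longer genes hold more windows.

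Marker genes were counted in the same way as a check on the tissue. Of the markers tested, 4 of 7 neuronal, 2 of 4 astrocyte, 3 of 3 oligodendrocyte and 2 of 4 microglial genes had at least 1.5 times IgG-IP in both groups. Muscle and heart markers passed in 1 of 2 and 2 of 3 cases, and liver markers in 0 of 2. In all, 14 of 25 markers passed, beside 49.5% of all genes tested. The 7 neuronal markers had log2 ratios to IgG-IP from 0.33, at Snap25, to 1.31, at Camk2a, in FC. In CON they ran from 0.27 to 1.03, and the medians were 0.98 in FC and 0.71 in CON. Medians in FC and CON were 1.56 and 1.06 for oligodendrocyte, 0.71 and 0.72 for astrocyte and 0.85 and 0.53 for microglial markers. Those of skeletal muscle were 1.496 and 1.04, of heart 1.32 and 0.78 and of liver -0.57 and -0.28. Muscle and heart markers thus lay above neuronal markers, and liver markers below. The level over IgG-IP did not separate hippocampal markers from those of muscle and heart. Between groups, markers with at least 100 H4K5ac-ChIP reads were compared. Past 1.2-fold, 3 of 4 microglial, 1 of 7 neuronal, 0 of 4 astrocyte and 0 of 3 oligodendrocyte markers were higher in FC. So were 2 of 3 skeletal muscle, 2 of 3 heart and 1 of 3 liver markers. Together 9 of 27 were higher, beside 11.8% of all genes tested, and 1, of liver, was lower. Among the 9, the intervals of Aif1, Ckm, Myog and Apoa1 included 0, as did that of Alb, the lower gene. Less the median of genes of like GC content, the microglial median went from 0.29 to 0.17, and that of all markers from 0.12 to 0.03. Of the 9, only Prox1 (0.30) and Itgam (0.28) then stayed past 1.2-fold, a level at which 7.32% of all genes tested were higher. The part of cell composition in the group ratios of the channel genes was not tested.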

How the data were processed

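H4K5ac-ChIP, IgG-IP and input were sequenced in FC and CON, 1 library each, with SOLiD reads of 50 bp that the study's methods say were mapped to mm9 with Bioscope. The authors deposited aligned reads as BED records, and the deposited score is the mapping quality of a read, from 4 to 100. Records are neither normalized nor pooled across libraries, and a read may have been reported at several sites. Samples were grouped by their labels.

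Chromosome lengths were checked against the NCBIM37 genome, and 0 reads ran past a chromosome end. Reads overlapping an interval by at least 1 bp were counted whatever their score. Gene bodies ran from first TSS to last TTS, and promoters were the 5 kb upstream. Densities were scaled by all aligned reads (RPKM). Ratios were taken over genes with at least 100 reads (promoters 20) summed over both libraries. Genes within 1% of GC content gave the GC medians. Depth was 14549689 to 45673239 aligned reads, of which 11.5% to 17.8% repeated a position and strand. Intervals cover counting error only, since each group has 1 library per antibody. Reads carry no molecular identifiers, so repeats counted in densities and ratios may be copies, which would make these intervals too narrow.

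Regions were called by a scan written here after the study's MACS settings. It used 1 read per position and strand, a shift of 75 bp and windows of 300 bp in steps of 50 bp. Regions had a one-sided Poisson p below 1e-05 against an expected count. This was the largest of the genome rate (genome size 1.87e+09) and the control's local rates over 1, 5 and 10 kb. All rates were set to the depth of the tested library. The scan and the ratios were tested on simulated data. Alternatives tried were 1 read per position and strand, a score of at least 20, read midpoints, scaling by reads outside genes and promoters, input for IgG-IP, other promoter lengths, reference ratios, shifts of 50 and 100 bp and p thresholds of 1e-07 and 0.001.

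All 6 members were named in every result. Of the pathway list, genes past 1.2-fold between groups and the 3 highest and 3 lowest over IgG-IP were named, with the 2 most alike genes of each member (0.01 RPKM added) and, of the regions in members, all where 10 or fewer and otherwise the 5 with the largest fold. Members and lists were chosen with earlier results of these data known. Python 3.11.15, NumPy 2.4.6, SciPy 1.17.1, pandas 2.3.3 and matplotlib 3.10.9 were used.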

Additional observations from a re-analysis of the deposited data

Results flagged for a closer look

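Among the gene bodies, the 5-kb promoters and the 4-kb intervals around the first TSS, H4K5ac-ChIP lay above IgG-IP in 1 group and below it in the other at 3 places. The difference between groups was not tested, since each rests on single libraries and few reads. Within 2 kb either side of the first TSS of Ryr2, the log2 ratio to IgG-IP in FC was 0.25 (-0.54 to 1.09), and in CON it was -0.67 (-1.39 to 0.06), and FC minus CON was 0.92. The counts there were 49 and 41 H4K5ac-ChIP reads and 19 and 30 IgG-IP reads, so IgG-IP took part in the change. At the Itpr3 promoter FC minus CON was 0.28, with 61 H4K5ac-ChIP reads in both groups. At the Ryr3 promoter it was -0.11. With promoters of 2 kb, Ryr1 also changed sign, at -0.12 in FC and 0.17 in CON, with intervals that included 0.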

How the results depend on the processing

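The count of members with gene body H4K5ac-ChIP at least 1.5 times IgG-IP, 3, became 6 when libraries were scaled by reads outside genes and promoters (72.8% of all genes). It became 1 (Itpr1) with input in place of IgG-IP (20.4% of all genes). With 1 read per position and strand or a score of at least 20, Itpr3 dropped out and 2 remained (45.6% and 48.8% of all genes). Over input the count of 1 became 3 (Ryr3, Itpr1 and Itpr2) under the outside scaling (48.4% of all genes). The 6 promoters with over 50 reads became 1 (Itpr1) with promoters of 2 kb, a shorter interval held to the same 50 reads. The share of all genes fell likewise, from 63.6% to 24.2%. The 1 promoter past 1.5 times IgG-IP became 0 with 1 read per position and strand (34.3% of promoters). It became 2 (Ryr1 and Itpr1) under the outside scaling (54.4% of promoters) and 2 (Itpr1 and Itpr2) within 2 kb of the TSS (44.9%). Between groups, 1 gene body (Ryr1) was higher in FC less the IgG-IP ratio (28.6% of all genes), and 2 (Ryr1 and Itpr3) were lower less the input ratio (49.5% of all genes). When input replaced IgG-IP, the FC gene body ratio reversed to -0.23 at Ryr1 and -0.27 at Itpr3.

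Regions depended on duplicates and on the threshold. Those higher in FC numbered 14 with all deposited reads and 21 at a p of 0.001, and Ryr3 had its 1 region at 1e-07. Those higher in CON numbered 2, 24 and, with a shift of 100 bp, 1. Those above IgG-IP in both groups went from 20 to 43, 109 and, at 1e-07, 11. No share over all genes is given at these settings, so these counts describe the scan and do not set the members apart. Among other values of single genes, 152 moved by less than their interval, 38 by more, and 2 reversed, as given. The sign of FC over CON at the gene bodies also depended on the reference. Above 0 were 5 of 6 members less the IgG-IP ratio, 3 of 6 less the median of genes of like GC content and 1 of 6 less the input ratio. The cause was not tested. No paired analysis was possible because each group has 1 library per antibody. Promoter ratios are limited by 24 to 43 IgG-IP reads.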
